A study of Mus musculus with 2 samples.

Results

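Collagen folding and processing enzymes are described here through 10 genes, P4ha1, P4ha2, P4hb, Plod1, Plod2, Plod3, Serpinh1, P3h1, Bmp1 and Pcolce. They were chosen by name for their known roles, matched by Ensembl gene identifier to mouse gene symbols, and all 10 were found among the 43346 Ensembl genes of the gene tables. The 10 genes had 64 of the 103639 transcripts in the transcript tables. Total RNA had been sequenced from whole lungs of healthy B6NCrl mouse embryos at embryonic day 15.5, in a single group of 2 libraries with no treatment and no genetic change named in the labels. Lungs of 78 embryos were pooled for replicate 1 and lungs of 62 for replicate 2, male and female together. RNA was extracted by the mirVana method and kept above 200 nt, with an input of 10 ng per library and added spike-ins. The tables hold 40395850 estimated reads for replicate 1 and 36601054 for replicate 2. The design compares no conditions, so the levels, the transcripts behind them and the difference between the pools are what can be described. No p-value is given for any of these.

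Collagen chains are made in the endoplasmic reticulum (ER), where prolyl and lysyl residues are hydroxylated before chains wind into a triple helix. Prolyl 4-hydroxylation stabilises the helix, lysyl hydroxylation prepares sugar attachment and cross-links, and the chaperone HSP47 binds the folded helix until it leaves the ER. After secretion, proteinases remove the propeptides so that fibrils can form, and in the developing lung such fibrils surround the branching airways and vessels.

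Levels are given in TPM (a level per transcript length, scaled to the same total in each library) as replicate 1 and then replicate 2, followed by the mean ± SD over both libraries (n = 2). These levels and SDs are of the deposited TPM, before the TMM scaling used for the difference between the pools. Detected means at least 1 TPM in each library. Each level has a deposited interval whose level of confidence is not stated in the sources used here. Values of 2 genes or transcripts are called separate where their order was the same in each library and their intervals did not overlap in either. TPM is the share of a pool of RNA from all lung cells, so fewer cells of a type and less RNA per cell cannot be told apart.

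In P4ha1, P4ha2 and Plod2 the transcripts with a complete coding part differ by an alternative coding exon, and these exons are shown because the measured forms of the enzymes turn on them. They were read from the GENCODE M21 transcripts on GRCm38, plus strand for all 3 genes, 5′ to 3′. P4ha1 has a pair of exons of 71 nt at exon 9 of 15, of which each transcript carries one, at chr10:59354340-59354410 in P4ha1-201 and at chr10:59355350-59355420 in P4ha1-203. The pair has 42 of 71 bases in common (59.2%) when compared position by position, and capitals mark the 29 that differ.
P4ha1-201 exon: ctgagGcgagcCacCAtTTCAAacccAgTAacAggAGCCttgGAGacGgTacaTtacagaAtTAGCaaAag
P4ha1-203 exon: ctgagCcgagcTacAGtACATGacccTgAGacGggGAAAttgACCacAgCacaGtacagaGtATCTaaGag

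P4ha2 has a like pair at exon 13. The exon of 66 nt at chr11:54126346-54126411 belongs to P4ha2-201 and the exon of 60 nt at chr11:54126238-54126297 to P4ha2-202 and P4ha2-215. Capitals mark the exon, and 15 nt of the neighbouring exons stand in lower case on each side. An alignment of the pair had 36 identical bases over 67 positions.
P4ha2-201: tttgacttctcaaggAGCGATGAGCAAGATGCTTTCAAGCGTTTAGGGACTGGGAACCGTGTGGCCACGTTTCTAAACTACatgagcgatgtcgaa
P4ha2-202: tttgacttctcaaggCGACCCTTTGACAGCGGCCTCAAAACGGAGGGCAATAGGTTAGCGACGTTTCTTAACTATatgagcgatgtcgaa

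Plod2 has an exon of 63 nt at chr9:92601985-92602047, exon 14 of 20, that Plod2-203 includes and Plod2-201 skips. The exon is in capitals between the same flanking bases, and the joined flanks without it are the junction of the short form.
Plod2-203: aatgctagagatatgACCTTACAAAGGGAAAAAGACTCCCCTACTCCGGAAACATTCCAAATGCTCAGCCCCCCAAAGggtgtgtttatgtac
Plod2-201: aatgctagagatatgggtgtgtttatgtac

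All 10 genes were detected, where 33.6% of all Ensembl genes were, and in both libraries all 10 stood above the median of the detected genes (17.6 and 16.7 TPM). Their own median was 54.4 and 55.5 TPM. The share of 33.6% covers genes of every type, while the 10 were chosen for known roles. Levels spanned 44.3-fold in replicate 1 and 44.8-fold in replicate 2, from Serpinh1 at the top to P4ha2 at the bottom. Together the genes held 0.398% and 0.397% of the estimated reads, of which Serpinh1 and P4hb took 81.5% and 81.7%. Of the 45 pairs of genes, 43 were separate. Plod2 and Plod1, and P3h1 and P4ha2, are neighbours in the order whose levels were not.

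**Figure D1:**
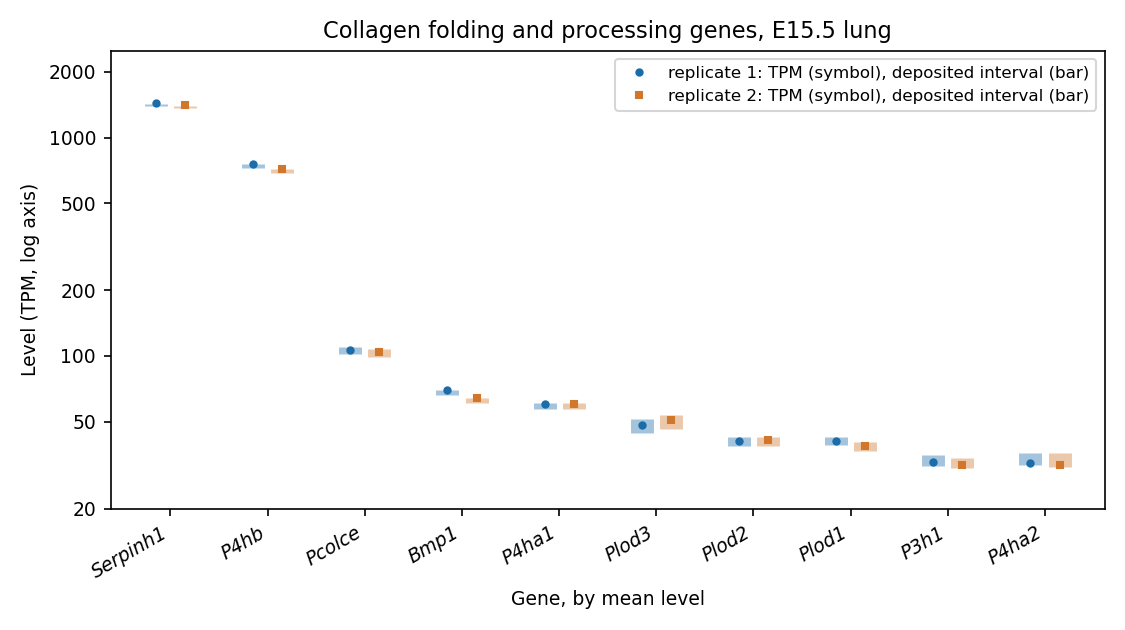
Level of each of the 10 genes in each library, in TPM on a log axis; symbols are the deposited TPM of replicate 1 (circles) and replicate 2 (squares), and bars the deposited interval. Serpinh1 (1440.1 and 1415) and P4hb (756 and 721) stand above the other 8 genes, which lie between 31.6 and 107 TPM.

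Serpinh1 (ENSMUSG00000070436.7, chromosome 7, 99345376 to 99353239, minus strand) encodes HSP47, the chaperone that binds procollagen. Its levels were 1440.1 and 1415 TPM, a mean of 1427 ± 18.0, which ranked 59 among the 14583 detected genes. It was the most abundant of the 10 genes and stood 1.93 ± 0.0407 times above P4hb. By TPM it was also above each single collagen chain gene listed, at 1.39 ± 0.0433 times Col1a1 and 1.09 ± 0.0423 times Col3a1, the highest of the list. Its interval was separate from both. By estimated reads, which are not divided by length, Serpinh1 was below both. It had 82716 and 75555 reads, against 163111 and 142708 for Col1a1 and 154476 and 130523 for Col3a1. The 12 listed chain genes summed to 4160 and 3914 TPM. All these are RNA values and say nothing of protein. Serpinh1-201, with 1251 coding nt, held 95.5% and 95.3% of the gene's TPM, and the only other transcript, Serpinh1-202, was 20.6 ± 0.553 times lower.

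Prolyl 4-hydroxylase joins a pair of catalytic alpha subunits to a pair of beta subunits. P4hb (ENSMUSG00000025130.7, chromosome 11, 120560298 to 120573253, minus strand) encodes the beta subunit, which is also protein disulfide isomerase and acts on many proteins besides collagen. It reached 756 and 721 TPM, a mean of 739 ± 24.9 at rank 158. The summed alpha subunit genes were 7.01 ± 0.121 times lower. Among the other disulfide isomerase genes listed, the ratio of P4hb to Pdia3 was 1.01 ± 0.0149 with intervals that were not separate. Its ratio to Pdia6 was 1.21 ± 0.0109 and to Pdia4 2.52 ± 0.123, with intervals that were separate. All these ratios use gene TPM. Transcripts with a complete coding part gave P4hb 671 and 643 TPM, below the gene TPM of Pdia3 (741 and 722). That sum includes P4hb-203, which has 495 coding nt. P4hb-201 alone, with 1527 coding nt, had 647 and 622 TPM. The other isomerase genes were not limited to complete coding transcripts.

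P4ha1 (ENSMUSG00000019916.10, chromosome 10, 59323296 to 59373304, plus strand) was the leading alpha subunit gene, at 60.2 and 60.3 TPM and a mean of 60.2 ± 0.0636. P4ha2 (ENSMUSG00000018906.10, chromosome 11, 54100095 to 54131665, plus strand) had 32.5 and 31.6 TPM and a mean of 32.1 ± 0.629. The levels did not overlap, and P4ha1 was 1.88 ± 0.0389 times higher. With P4ha3, the remaining alpha subunit gene, at 13.9 and 12.2 TPM, the shares of the alpha subunit TPM were 57.2% ± 1.00 for P4ha1, 30.4% ± 0.0971 for P4ha2 and 12.4% ± 0.904 for P4ha3.

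The P4ha1 exon shown above that leads was the later one. P4ha1-203 had 49.5 and 46.6 TPM and P4ha1-202, which carries the same exon, 3.97 and 6.16. P4ha1-201, with the earlier exon, had 6.77 and 7.51 TPM, and P4ha1-203 was 6.76 ± 0.775 times higher and separate from it. The earlier exon was in 11.2% and 12.5% of the gene's TPM, a mean of 11.8% ± 0.919. The 3′ noncoding part of P4ha1-201 is annotated 1053 nt longer than that of P4ha1-203, so reads from the ends enter this split as well as reads from the exons. P4ha1-202 lacks a coding exon of 240 nt (chromosome 10, 59348181 to 59348420), which the other transcripts include. The transcripts with it held 93.4% and 89.8% of the gene's TPM. The 3′ noncoding part of P4ha1-203 is annotated 295 nt longer than that of P4ha1-202, so reads from the ends enter this split too. The intervals of P4ha1-202 were wide, 1.88 to 6.77 TPM in replicate 1 and 2.78 to 11.2 in replicate 2.

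P4ha2 was spread over its transcripts. P4ha2-215 had 9.77 and 10.6 TPM, P4ha2-202 9.25 and 8.63, and P4ha2-201 10.2 and 8.33. No pair of these was separate, and the order differed between the libraries. P4ha2-201 was the highest of them in replicate 1 and the lowest in replicate 2. Among transcripts with a complete coding part the exon of 66 nt was in 34.8% and 30.2% of the TPM, a mean of 32.5% ± 3.25. At 1731 and 1511 estimated reads P4ha2 was the gene with the fewest reads of the 10.

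**Figure D2:**
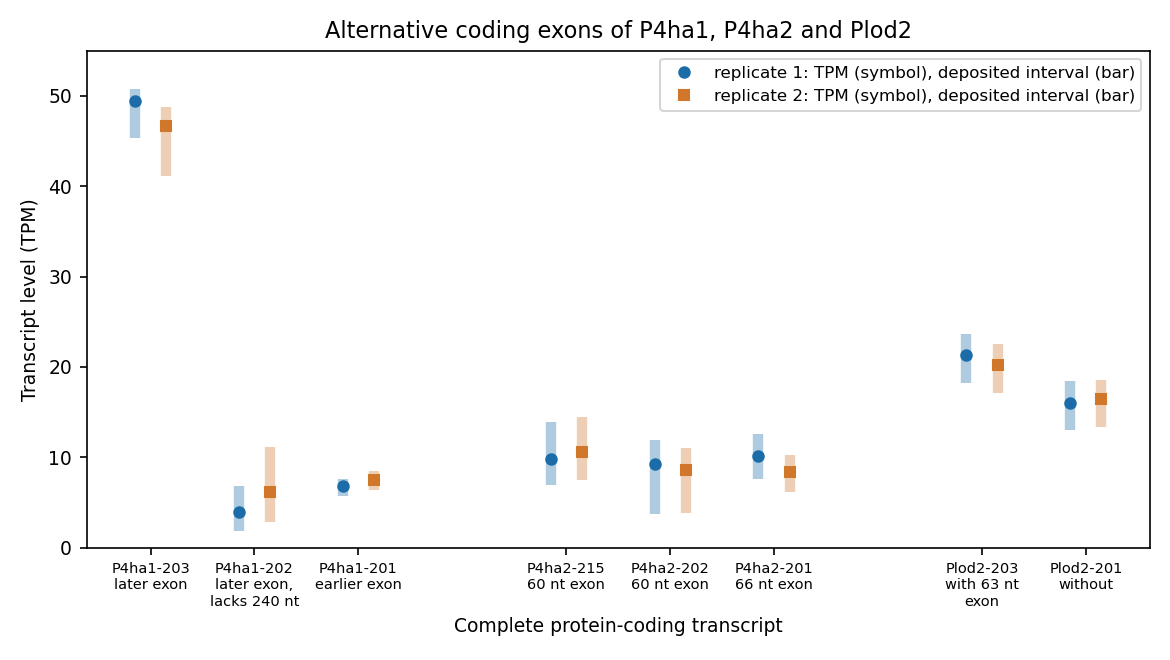
TPM of the complete protein-coding transcripts of P4ha1, P4ha2 and Plod2, named with the alternative exon each carries; symbols are the deposited TPM of each library and bars the deposited interval. P4ha1-203 stands apart at 49.5 and 46.6 TPM, while the intervals overlap among the 3 P4ha2 transcripts and between Plod2-203 and Plod2-201.

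P3h1 (ENSMUSG00000028641.12, chromosome 4, 119232915 to 119248975, plus strand) encodes prolyl 3-hydroxylase 1, which works in a complex with cartilage-associated protein and cyclophilin B. Its levels were 32.5 and 31.8 TPM, a mean of 32.2 ± 0.488. The genes of its partners were higher, Crtap 4.12 ± 0.0787 times and Ppib, which encodes cyclophilin B, 16.2 ± 0.622 times. Within the prolyl 3-hydroxylase genes P3h1 held 56.2% ± 1.94 of the TPM, P3h3 37.3% ± 1.31 and P3h2 6.58% ± 0.635. P3h1-204, with 2217 coding nt, took 91.8% and 94.8% of the gene's TPM.

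The lysyl hydroxylase genes lay close together. Plod1 (ENSMUSG00000019055.11, chromosome 4, 147909753 to 147936767, minus strand), whose enzyme acts on the helical part of collagen, had 40.9 and 38.8 TPM and a mean of 39.9 ± 1.54. Plod2 (ENSMUSG00000032374.10, chromosome 9, 92542223 to 92608428, plus strand), whose enzyme acts on the telopeptides at the chain ends, had 41.0 and 41.1 TPM and a mean of 41.0 ± 0.113. Plod3 (ENSMUSG00000004846.6, chromosome 5, 136987019 to 136996648, plus strand), whose enzyme also transfers sugars to hydroxylysine, had 48.5 and 50.7 TPM and a mean of 49.6 ± 1.54. By gene TPM, Plod3 was above the other two and separate from both, and it held 38.0% ± 1.15 of the TPM of the 3 genes against 31.5% ± 0.0594 for Plod2 and 30.5% ± 1.21 for Plod1.

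This order turned once transcripts were limited to those with a complete coding part. Plod3-201, the only one of Plod3, had 32.8 and 30.2 TPM, which is 67.7% and 59.6% of the gene's TPM but 89.7% and 86.7% of its reads. The remainder was mostly in short transcripts. Plod3-202, of 600 nt with an incomplete coding part, held 17.5% and 24.4%, and Plod3-206, a retained-intron transcript of 932 nt, 9.03% and 13.1%. Plod1-201 had 39.1 and 36.6 TPM, 95.5% and 94.4% of Plod1, and was 1.20 ± 0.0145 times above Plod3-201, with intervals separate in both libraries. By complete coding transcripts the genes thus stood at 38.5 ± 1.69 TPM for Plod1, 37.0 ± 0.488 for Plod2 and 31.5 ± 1.85 for Plod3. Plod3 overlaps Znhit1 on the opposite strand over 1003 nt, a gene at 85.0 and 85.5 TPM. Plod2 overlaps Gm38391 on the opposite strand over 647 nt, a gene at 2.24 and 2.26 TPM. The estimated counts of Plod3 and Plod2 were not whole numbers, unlike those of the other 8 genes. The use of strand in counting is not given in the sources used here, so reads of these overlaps cannot be assigned with certainty.

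**Figure D3:**
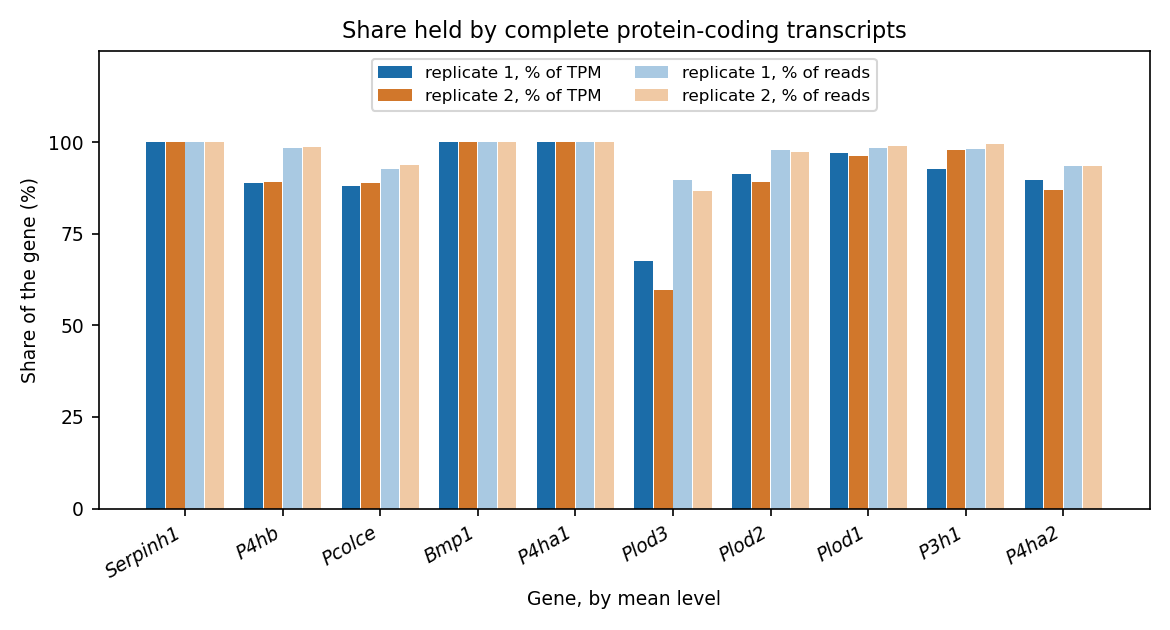
Share of each gene held by transcripts with a complete coding part, in percent of its TPM (dark bars) and of its estimated reads (light bars), per library. Plod3 is lowest, at 67.7% and 59.6% of TPM but 89.7% and 86.7% of reads; P4hb has 88.8% and 89.1% of TPM and 98.5% and 98.6% of reads.

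Plod2 was divided between its forms. The long form, Plod2-203, which carries the exon of 63 nt shown above and is the form linked to hydroxylation of telopeptides, had 21.4 and 20.2 TPM. The short form, Plod2-201, had 16.0 and 16.5 TPM. The long form made up 57.1% and 55.1% of both, a mean of 56.1% ± 1.41. It was the higher in each library, by 1.28 ± 0.0727 times, but the intervals overlapped, so the order of the forms is not separate. Their annotated 3′ noncoding parts differ by 8 nt.

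Bmp1 (ENSMUSG00000022098.9, chromosome 14, 70474558 to 70520234, minus strand) encodes the procollagen C-proteinase, which removes the C-terminal propeptide. It had 69.7 and 64.2 TPM and a mean of 66.9 ± 3.89, the widest spread of the 10 genes before scaling at 5.81% of the mean. After the TMM scaling described below it was not the widest. Its log2 ratio of replicate 2 to 1 was then -0.05, against 0.14 for Plod3, 0.08 for Plod2 and 0.07 for P4ha1. Its relatives were low: Tll1 had 0.81 and 0.74 TPM, under the detection minimum, and Bmp1 held 98.8% of the summed TPM of Bmp1, Tll1 and Tll2 in both libraries. Bmp1-201, with 2973 coding nt over 20 exons, is the only Bmp1 transcript the tables hold. Its coding length is that of the long, tolloid-type form, and a shorter form was not measured apart from it.

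Pcolce (ENSMUSG00000029718.10, chromosome 5, 137605103 to 137613784, minus strand) encodes the procollagen C-proteinase enhancer, a secreted glycoprotein that speeds the cut by Bmp1. It had 107 and 104 TPM and a mean of 105 ± 1.85, which was 1.58 ± 0.0639 times Bmp1 and separate from it. Its relative Pcolce2 had 6.63 and 6.85 TPM, and Pcolce held 94.0% ± 0.230 of the sum of both. Pcolce-201 took 86.1% and 85.0% of the gene's TPM. Pcolce overlaps Fbxo24 on the same strand over 1282 nt, but Fbxo24 had 0.19 and 0.08 TPM. It also overlaps Gm36266 on the opposite strand over 933 nt, a gene for which no level was given. Adamts2, the main N-proteinase gene of fibrillar procollagen, was 6.12 ± 0.0204 times below Bmp1.

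The pools gave near equal levels of all 10 genes. The difference is given as the log2 ratio, replicate 2 to replicate 1, after TMM scaling, which moved the TPM of replicate 2 up by 0.07 (log2). It ran from -0.05 for Bmp1 to 0.14 for Plod3, with a median of 0.04 against 0.01 over the 11261 genes tested, those whose mean reached 5 TPM. A gene is called apart between the libraries at a mean of at least 5 TPM and a 2-fold difference or more with intervals that do not overlap. None of the 10 genes was apart, where 0.355% of all tested genes were (40 of 11261). At that share a count of 0 in 10 genes is no trait of these genes. With no fold minimum 1 gene had intervals that did not overlap after scaling, against 13.5% of all tested genes. It was Serpinh1, at 1.03 times in replicate 2 over replicate 1. Without scaling Serpinh1 was instead lower in replicate 2, so that direction rests on the scaling. Among the 4897 tested genes in the range of levels of the 10, the SD of the log2 ratio was 0.125, and the ratio of every one of the 10 but Plod3 was smaller than that. Of the 64 transcripts, 20 reached the mean of 5 TPM and none of them was apart, where 0.404% of all tested transcripts were. At that share a count of 0 in 20 transcripts is no trait of them either. A further 14 transcripts stood at 0 in both libraries.

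**Figure D4:**
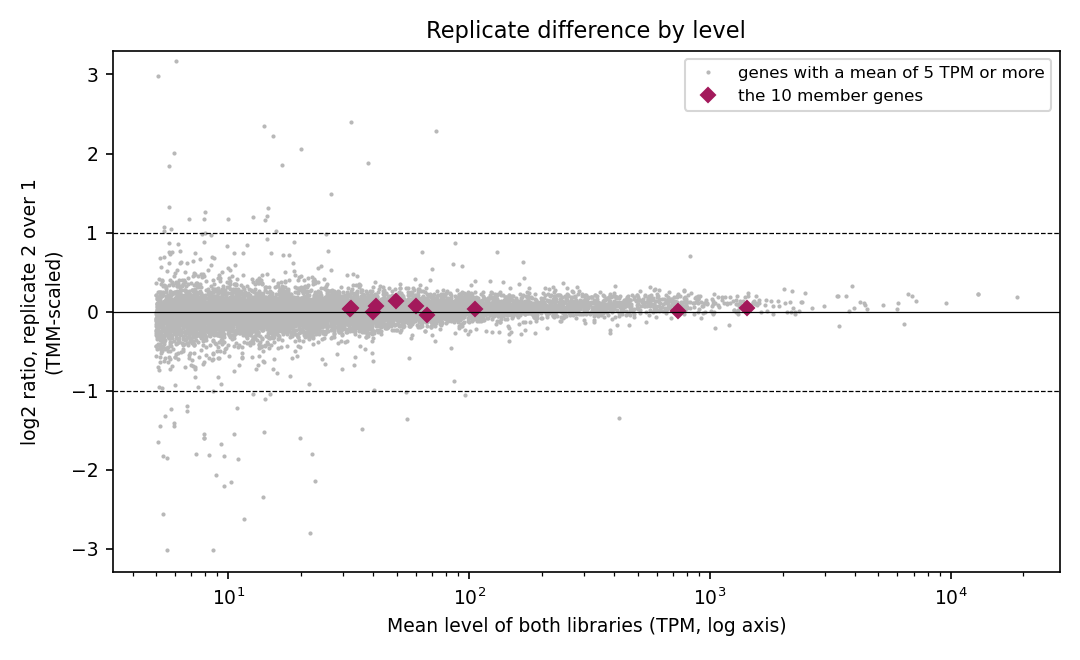
TMM-scaled log2 ratio, replicate 2 over 1, against the mean level in TPM on a log axis, for the 11261 genes tested (grey points) and the 10 genes described (diamonds); dashed lines mark 2-fold. The 10 genes lie between -0.05 and 0.14, inside the 2-fold lines.

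The tissue label was checked with marker genes. All 4 markers of lung epithelium and all 4 of lung mesenchyme were detected, as were those of smooth muscle, endothelium, mesothelium, macrophages and red cells. Cartilage and bone, other tissues rich in collagen, had 2 of 4 markers detected (Acan and Matn1 were not) and 1 of 4 (Ibsp). Their summed levels were 37.0 and 34.8 TPM and 5.58 and 5.09 TPM. With no fold minimum, all 3 smooth muscle markers (median log2 ratio 0.257) and all 3 mesothelium markers (-0.362) had intervals that did not overlap. So did 3 of 4 epithelium, 2 of 4 mesenchyme and 1 of 3 endothelium markers, where 13.5% of all tested genes did. None of these lung markers was apart by the 2-fold rule. The pools differed by more in listed markers of neighbouring organs. These lists were chosen with earlier results of these data known, so their counts are no independent check. Of all tested genes 0.355% were apart. Summed liver markers were at 32.8 and 152 TPM, with 6 of 6 apart. Markers of heart and skeletal muscle were at 64.7 and 243 with 4 of 4 apart. Outside this list, the striated muscle genes Actc1, Ckm and Actn2 had log2 ratios of replicate 2 to 1 of -0.269, 0.069 and 0.025. The 4 markers thus do not stand for all genes of these muscles. Thymus markers were at 77.9 and 15.2 with 3 of 5 apart. The other 2 thymus markers, Ptcra and Rag1, had means under 5 TPM and so were not tested. With no minimum 5 of 5 thymus markers were apart, where 320 of all Ensembl genes were. None of the 10 genes was apart between the same pools, which at a share of 0.355% is no trait of them. The part of these tissues in the levels of the 10 genes was not tested.

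The other genes of the pathway were described by lists chosen for role. Of 69 genes in 8 lists, 62 were detected, where 33.6% of all Ensembl genes were. That share covers genes of every type, so the count detected is not read as a trait of the pathway. The 59 genes with a mean of at least 5 TPM were tested and none of them was apart, where 0.355% of all tested genes were. At that share a count of 0 in 59 genes is no trait of the pathway. With no minimum none of the 69 was, where 320 of all Ensembl genes were. Ratios set against the 10 genes above use pairs chosen by role. Among the 6 partner and related prolyl hydroxylase genes all were detected, with a median of 41.2 ± 0.523 TPM, from P3h2 at 4.17 and 3.39 to Ppib at 513 and 530.3. Among 16 chaperones, isomerases and sugar transferases of the ER, 15 were detected, with a median of 142 ± 0.474 TPM. Calr, the lectin chaperone calreticulin, led at 910.5 and 867 TPM, and Creb3l1, a transcription factor of the secretory pathway, was the lowest detected at 9.69 and 9.55. Colgalt2, a collagen galactosyltransferase, missed the minimum at 0.87 and 1.01 TPM. Fkbp10, a prolyl isomerase that works with HSP47, was 11.8 ± 0.0286 times below Serpinh1.

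All 9 genes of ER export were detected, with a median of 54.5 ± 1.31 TPM, from Klhl12, an adaptor that enlarges transport vesicles, at 24.8 and 22.9 to the coat subunit gene Sec13 at 230.4 and 231. The 9 procollagen proteinases and relatives, a list without Bmp1 and Pcolce, were lower, with 5 detected and a median of 1.49 ± 0.156 TPM. Furin, a proprotein convertase, led at 14.1 and 13.7 TPM and Adamts14, an N-proteinase gene, was the lowest detected at 1.60 and 1.38. Besides Tll1, the genes under the minimum were Tll2 at 0.01 in both libraries and the meprin genes Mep1a and Mep1b at 0.03 or less, all below the level that 3 reads would give (0.0352 TPM or more in these genes). Of 5 cross-linking oxidases 4 were detected, with a median of 34.1 ± 1.23 TPM, from Loxl3 at 17.9 and 18.6 to Lox at 196 and 177, and Loxl4 was at 0.55 and 0.47. All 12 collagen substrate genes were detected and had a list median of 174 ± 6.53 TPM, from Col11a1 at 8.08 and 8.52 to Col3a1 at 1359 and 1264.

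**Figure D5:**
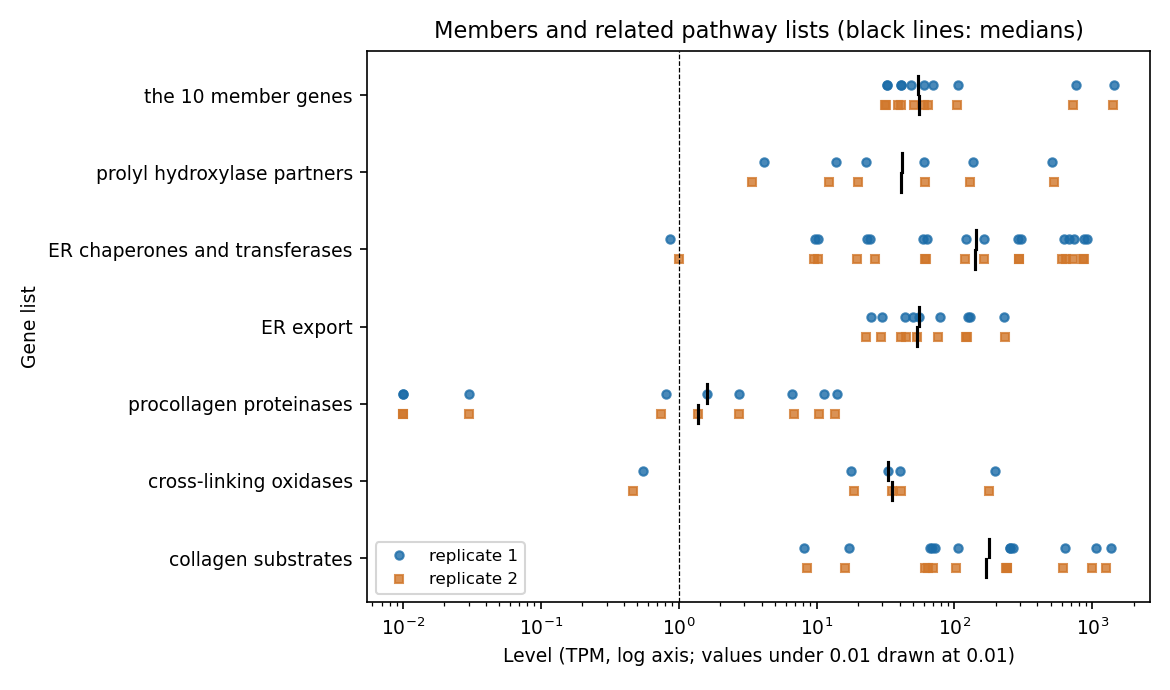
Level of each gene in TPM on a log axis, for the 10 genes described and 6 lists of related genes, in each library; black lines are list medians and the dashed line is the detection minimum of 1 TPM. The procollagen proteinases, a list without Bmp1, have the lowest median (1.60 and 1.38 TPM), and the 10 genes have a median of 54.4 and 55.5.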

How the data were processed

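Gene and transcript tables were deposited per library, built on mm10 with GENCODE M4 per the deposited text that describes them. Which aligner, quantifier and strand setting made them is not given in the sources used here. Expected counts, per the file headers, are estimated reads per feature, 40395850 in replicate 1 and 36601054 in replicate 2. The deposited TPM and FPKM are levels per length, and the deposited percent is a transcript's part of its gene's TPM. The deposited intervals surround a posterior mean TPM, not the TPM, which lay outside for 2 of the 10 genes in replicate 1 (Serpinh1 and P4hb) and for 1 in replicate 2 (Serpinh1). They cover counting and read assignment only.

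Names, exons and sequences came from GENCODE M21 on GRCm38, matched by identifier (97.96% of genes), and 61 of the 64 transcripts had the same length there; Bmp1-201, Serpinh1-201 and Serpinh1-202 did not. A complete coding part means an annotated start and end. Short numbered features that name no gene (71 and 66 reads) were left out. Expected counts were rounded for TMM (edgeR 4.0.16, R 4.3.3) and for DESeq2 1.42.0 size factors. Python 3.11.15 made all other values. Ratios of counts under TMM were tried on simulated counts with known changes, but the TPM ratios and the interval rule used here were not.

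The 10 genes and all lists were chosen with earlier results of these data known. Named are the 10 genes, their transcripts with 10% or more of the gene or with an alternative exon, and of each pathway list the highest, the lowest detected and all undetected genes. Genes set against the 10 in ratios, the family relatives, Serpinh1-202 and the marker genes were named outside this rule, after their values were seen. Each pool gave 1 library, so differences between pools include those of handling. Alternatives changed the unit, scaling, detection minimum, interval rule and the transcripts counted, or left out a library.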

Additional observations from a re-analysis of the deposited data

How the results depend on the processing

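With a single group of 2 libraries no test between conditions exists, and the spread between pools rests on 1 difference. No paired analysis was possible because there is no second group. FPKM and TPM differ by a constant within a library, so FPKM kept every order. The count of the 10 genes apart between libraries stayed at 0 under every planned fold rule, where 40 to 320 of all genes were apart. It became 1 with non-overlapping intervals and no fold minimum, where 13.5% of all tested genes were. When scaling was left out too it became 3 (P4hb, Serpinh1 and Bmp1, all lower in replicate 2), an alternative added after seeing the data. The share of all genes under that alternative is not given, so the 3 cannot be read as particular to these genes. Without scaling the log2 ratio changed sign for 5 of the 10 genes, and DESeq2 size factors and posterior mean counts changed none. Shares within a family moved with the unit. P4ha1 went from 57.2% of alpha subunit TPM to 66.1% by expected counts, 55.9% by posterior mean TPM and 61.5% by complete coding transcripts. P3h1 went from 56.2% to 60.3% by expected counts and 59.2% by complete coding transcripts. Plod3 went from 38.0% to 30.7% by expected counts and 29.4% by complete coding transcripts, and its ratio to Plod1 turned from 1.25 to 0.818 by complete coding transcripts, since short transcripts add TPM with few reads. The alternatives with complete coding transcripts were added after seeing the data. By posterior mean TPM, P4ha2 (33.8 and 33.4) stood above P3h1 (33.1 and 32.5), neighbours that were not separate.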

Other observations

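The hydroxylases need ascorbate, iron and 2-oxoglutarate, and 5 of 6 genes of a list for their supply were detected. Their median with Slc23a1 included was 60.5 ± 2.18 TPM, and none of the 5 tested was apart, where 0.355% of all tested genes were. Idh1, a cytosolic source of 2-oxoglutarate, led at 100.5 and 96.2 TPM. The ascorbate transporter gene Slc23a2 was the lowest detected at 9.70 and 9.91 TPM, and its relative Slc23a1 was under the minimum at 0.32 and 0.50. All 6 genes of a list on the oxygen-sensing relatives of the prolyl hydroxylases were detected. Their median was 26.0 ± 0.276 TPM, and all 6 were tested and none was apart, against the same 0.355%. Hif1a, the hypoxia-inducible factor subunit, led at 73.0 and 74.1 TPM and Epas1 was lowest at 8.55 and 7.33.

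A short P4hb transcript carried level but few reads. P4hb-202, a processed transcript of 414 nt with no coding part, held 11.2% and 10.9% of the gene's TPM and 1.46% and 1.41% of its reads, and P4hb-201 was 7.77 ± 0.223 times higher and separate from it.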
